A study of Mus musculus with 36 samples.

Results

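The lateral entorhinal cortex (LEC) of mice that had received a foot shock, called fear here as in the sample titles, was compared with the LEC of mice left in the home cage. The comparison took the 6 libraries whose tissue label was LEC and whose treatment was fear or home cage, 3 of each, out of 36 polyA RNA libraries in the series, and it covered all 16402 genes that passed a filter on low counts, of 37315 genes in the table. All mice were BL-6 of wild-type genotype (WT), lived in single cages and were handled for 3 minutes a day over 5 days, and tissue was taken 90 minutes after the behaviour. Another 3 LEC libraries came from mice exposed to a context without the shock. Age and sex were not given in the sources used here, and nothing ties a replicate number to a mouse or a pool, so a p-value here reflects library-to-library spread alone, which may be technical.

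The entorhinal cortex is the main cortical gateway to the hippocampus. In its lateral division, layer 2 neurons that make reelin send axons through the perforant path to granule cells of the dentate gyrus, and the lateral division is known for carrying information on objects, odours and time, while the medial division (MEC) is known for grid cells. Neuronal firing switches on immediate early genes, first transcription factors such as the Fos and Egr families and later effectors at the synapse, and stress also raises corticosterone, which acts on its own target genes through the glucocorticoid receptor.

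No gene passed an adjusted p of 0.05 between fear and home cage in edgeR's quasi-likelihood test (0 of 16402, 0%). At an unadjusted p under 0.05, 609 genes were higher in fear (3.71%) and 633 were lower (3.86%), while DESeq2 on the same libraries called 39 genes by adjusted p, 16 of them higher and 23 lower in fear. Of the DESeq2 calls of smallest p, down to Fosb (DESeq2 adjusted p = 0.031), the lower ones were processed pseudogenes, apart from Id2, Sox9 and Nrarp. The 3 fear libraries lay above the 3 home cage libraries for 918 genes (5.6%) and below them for 868 (5.29%). These 4 shares are the background for the gene lists that follow, in this fit. In other fits the numbers over all genes moved too, and list counts are to be read beside them. Without fear 1 there were 309 higher and 256 lower, without fear 2 587 and 580, and without fear 3 627 and 638. The replicate block gave 445 and 376, GC and length offsets 710 and 835, and the 6 libraries alone 340 and 444. Without context 1 there were 504 and 674, without context 2 499 and 542, and without context 3 487 and 508. For fits without a home cage library, or with the MEC-enriched genes as a covariate, the numbers over all genes are not given here. List counts from those fits stand without that background. Every "higher" or "lower" that follows describes values of genes that did not pass the edgeR test, unless a passed test is given. The 12 leading genes in each direction were chosen among genes without overlap between fear and home cage libraries. Reln, Egr1, Fosb, Hif3a, Sox9 and Gfap are among them, and their lack of overlap is part of the choice and not a result. Log2 values are fear over home cage from edgeR with standard errors, and levels are CPM, the counts divided by the scaled library size.

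The spread between libraries was widest in the home cage group. The median SD of log2 CPM over 12811 genes was 0.167 in fear, 0.149 in context and 0.287 in home cage. Home cage 3 stood apart from home cage 1 and 2 on the first principal component, which held 30.1% of the variance. There the fear libraries scored -12.2, -21.5 and 17.9, and home cage 1, 2 and 3 scored 42.9, 35.7 and -56.8. On the second component, with 19%, home cage 1 and 2 also differed. Home cage 1, 2 and 3 scored -13.6, 54.5 and 27.3 on it, and the fear libraries -14.8, -16.4 and -13.2. Genes were put in 5 equal bins by transcript GC content, and the median log2 deviation of the highest bin minus that of the lowest was taken in each library. This GC trend was -0.04, -0.12 and 0.27 in fear, -0.38, 0.09 and 0.22 in context and 0.47, 0.31 and -0.83 in home cage. Without home cage 3 the number of genes called was 56, with 12 higher and 44 lower in fear. Library totals were 28532291 to 31161363 counts in fear and 21871412 to 28122550 in home cage. Genes with any count numbered 20990, 21054 and 20746 in fear and 19309, 18678 and 18954 in home cage, with no overlap. In context they numbered 19600, 20713 and 21252. Home cage 1, at 28122550 counts, had 19309 such genes, and fear 2, at 28532291 counts, had 21054. What part this difference between the groups has in the comparison was not tested.

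**Figure D1:**
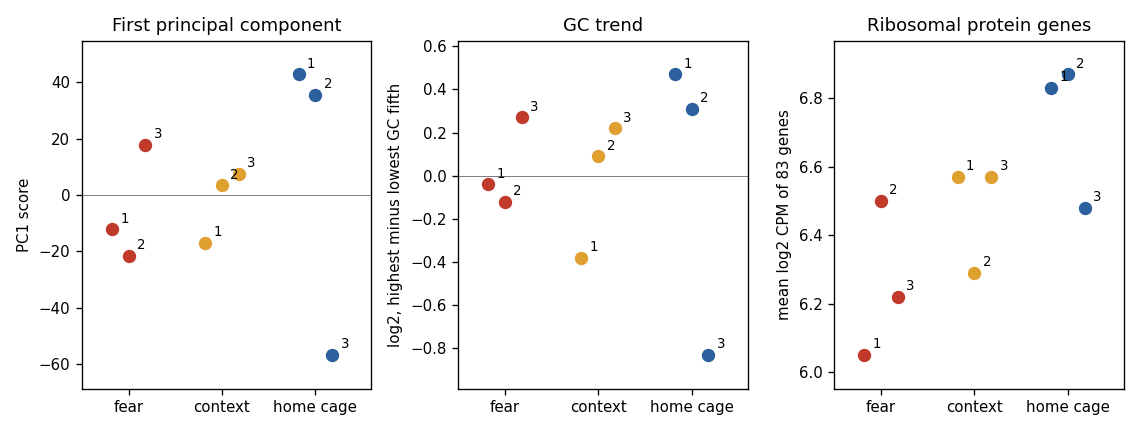
Library properties in LEC for the fear, context and home cage groups, with replicate numbers beside the points. Left, score on the first principal component of log2 CPM. Middle, median log2 deviation of the genes highest in GC content minus that of the lowest. Right, mean log2 CPM of 83 ribosomal protein genes. Home cage 3 has the lowest principal component score (-56.8) and the lowest GC trend (-0.83), and home cage 1 and 2 have the highest of both.

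The tissue label was checked against region markers in a fit of all 36 libraries, with LEC and MEC averaged over fear, context and home cage. Of 6 genes listed as enriched in LEC, Lmo3 and Gucy1a1 were higher in LEC than in MEC, by 0.62 ± 0.11 and 1.06 ± 0.13 on the log2 scale (edgeR adjusted p = 0.000144 and 5.78e-07). Reln did not pass (-0.14 ± 0.14, adjusted p = 0.56), and Igfbp6, Sema3d and Ptgfr had adjusted p of 0.427, 0.0856 and 0.287. Of 9 genes listed as enriched in MEC, 7 were lower in LEC, led by Cbln4 (-2.7 ± 0.18), Lef1 (-2.26 ± 0.24) and Cbln1 (-2.2 ± 0.19). A fear response in MEC enters these averages. In home cage mice Cbln4 was at 10.3 CPM in LEC and 86.3 CPM in MEC, Cbln1 at 7.16 and 34.1, and Col5a1 at 6.22 and 26.2. Lef1 was at 1.59 and 5.82, Mybpc1 at 3.31 and 7.14, Wfs1 at 104 and 141, and Scn4b at 5.13 and 6.95. In MEC after fear Scn4b was at 44.5 CPM, Wfs1 at 315 and Mybpc1 at 32.1. Cpne9 did not pass, and Kctd16 was higher in LEC (0.79 ± 0.17, adjusted p = 0.00139). CA1 and subiculum markers were uneven between libraries: Fibcd1 was at 11.7, 32.1 and 19.9 CPM in fear and at 86.0, 7.38 and 4.92 CPM in home cage.

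Among the rapid activity-regulated genes, 6 of 29 tested members lay higher in all 3 fear libraries than in any home cage library, and these were Egr1, Fosb, Egr4, Zfp36, Fos and Dusp6. Promoter windows from 250 bases before to 50 after the start were taken from RefSeq (GRCm38.p6), where 5 of the 6 were matched, to show the short motifs through which firing is known to reach such genes. Capitals mark TGACG on either strand, the core of the cAMP response element bound by CREB, and the CArG box bound by serum response factor. The 4 windows that hold either one are those of Fosb (chr7:19309996-19310295, minus strand), Egr4 (chr6:85513540-85513839, minus strand), Fos (chr12:85473640-85473939, plus strand) and Zfp36 (chr7:28379179-28379478, minus strand).
Fosb: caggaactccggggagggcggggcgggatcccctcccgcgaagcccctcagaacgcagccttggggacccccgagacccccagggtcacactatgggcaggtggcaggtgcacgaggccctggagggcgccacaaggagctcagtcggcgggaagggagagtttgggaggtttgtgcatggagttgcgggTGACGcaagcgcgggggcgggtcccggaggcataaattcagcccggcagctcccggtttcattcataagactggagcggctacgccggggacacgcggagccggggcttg
Egr4: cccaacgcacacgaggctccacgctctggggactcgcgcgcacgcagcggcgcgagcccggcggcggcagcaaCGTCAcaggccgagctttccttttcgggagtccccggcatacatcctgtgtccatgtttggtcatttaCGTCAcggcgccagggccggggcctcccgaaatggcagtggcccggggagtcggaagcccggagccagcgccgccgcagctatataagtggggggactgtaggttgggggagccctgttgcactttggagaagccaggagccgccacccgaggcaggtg
Fos: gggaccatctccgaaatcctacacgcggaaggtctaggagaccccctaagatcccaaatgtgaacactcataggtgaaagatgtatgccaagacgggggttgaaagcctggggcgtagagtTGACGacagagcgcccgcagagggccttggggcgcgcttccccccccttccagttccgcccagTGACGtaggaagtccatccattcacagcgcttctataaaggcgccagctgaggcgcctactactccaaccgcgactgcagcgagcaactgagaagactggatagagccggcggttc
Zfp36: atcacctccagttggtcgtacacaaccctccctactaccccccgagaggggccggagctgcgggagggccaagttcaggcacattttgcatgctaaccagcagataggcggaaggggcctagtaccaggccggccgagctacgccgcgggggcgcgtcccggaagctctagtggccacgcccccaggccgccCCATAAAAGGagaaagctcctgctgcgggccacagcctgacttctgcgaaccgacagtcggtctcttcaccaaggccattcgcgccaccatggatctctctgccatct
The Fosb window holds 1 copy of TGACG, the Egr4 and Fos windows hold 2 each, and the Zfp36 window holds 1 CArG box; the 2 motifs do not overlap. The Dusp6 window holds neither. TGACG is present in 20.8% of 32817 promoter windows of this length and the CArG box in 1.63%, so a match describes these letters and not a bound site.

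Egr1 encodes a zinc finger transcription factor of the first wave. It measured 185, 140 and 149 CPM in fear, 148, 166 and 139 CPM in context and 84.1, 77.7 and 49.2 CPM in home cage. Every fear and every context library lay above every home cage library. Its log2 value was 1.17 ± 0.19 for fear over home cage (edgeR adjusted p = 0.382, unadjusted p = 5.57e-05), 1.1 ± 0.19 for context over home cage and 0.07 ± 0.19 for fear over context (unadjusted p = 0.735). With offsets for GC content and transcript length the fear value was 1.13 and passed (adjusted p = 0.0303), as it did with the replicate block added (adjusted p = 0.0129). The comparisons of fear and of context with home cage share the 3 home cage libraries.

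Fosb, a partner of Jun in the AP-1 factor, measured 14.5, 10.9 and 15.6 CPM in fear, 12.4, 14.4 and 10.3 CPM in context and 8.2, 7.1 and 4.66 CPM in home cage. Its log2 value was 1.03 ± 0.24 (adjusted p = 0.527), and the fear and home cage libraries did not overlap. Egr4, of the same family as Egr1, measured 5.07, 3.78 and 4.52 CPM in fear and 3.1, 2.0 and 1.9 CPM in home cage (0.93 ± 0.26, adjusted p = 0.527). Fos itself measured 15.3, 14.4 and 14.6 CPM in fear, 15.1, 20.4 and 14.1 CPM in context and 13.3, 9.11 and 5.86 CPM in home cage. The 3 fear libraries were close to each other, while the home cage libraries spanned more than the gap to fear (0.64 ± 0.26, unadjusted p = 0.0296). Zfp36, which destabilises AU-rich messengers, was at 1.56, 2.25 and 1.53 CPM in fear and at 1.3, 0.729 and 0.776 CPM in home cage.

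The rest of the rapid list was mixed. Of the 29 members tested, 5 were higher and 0 lower at an unadjusted p under 0.05, beside 3.71% higher of all genes, and the median log2 value was 0.18 against -0.008 over all genes. Without home cage 1 the count was 8 higher with a median of 0.4, without fear 2 it was 3 higher, and without home cage 3 it was 3 higher and 1 lower, with 15 of 29 log2 values positive in place of 22. Without home cage 2 and 3 it was 2 higher and 4 lower. Arc, the immediate early gene of dendrites, was at 32.9, 27.5 and 31.9 CPM in fear and at 41.5, 34.6 and 11.9 CPM in home cage, so that the fear libraries lay inside the home cage range. Npas4, a factor specific to neuronal firing, was at 13.4, 11.4 and 7.38 CPM in fear and at 9.82, 9.52 and 9.14 CPM in home cage. For Arc, Nr4a1, Egr2 and Fos the lowest of the home cage values was that of home cage 3. The same held for Egr1, Fosb and Egr4, while for Zfp36 home cage 2 was lowest. Junb and Ier2 had negative log2 values (-0.49 ± 0.54 and -0.75 ± 0.86), with standard errors as large as the values.

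**Figure D2:**
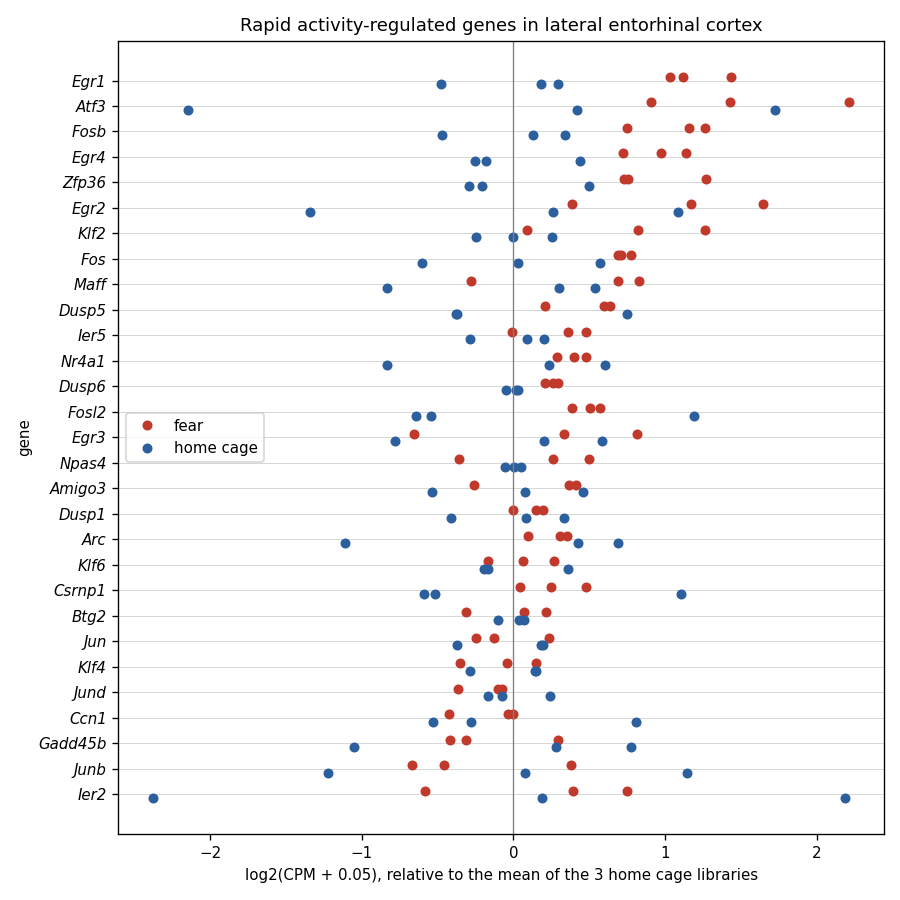
Each row is 1 of 29 rapid activity-regulated genes, and each point 1 library, with fear drawn above home cage. The horizontal axis gives log2(CPM + 0.05) relative to the mean of the 3 home cage libraries. The 6 genes Egr1, Fosb, Egr4, Zfp36, Fos and Dusp6 have all 3 fear libraries to the right of the home cage libraries; for Arc, Junb and Ier2 the home cage libraries surround them.

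The delayed activity-regulated genes had 8 members higher and 1 lower of 40 tested at an unadjusted p under 0.05, with a median log2 value of 0.17. By overlap 6 lay higher in every fear library (5.6% of all genes) and 4 lower (5.29%), those lower being Mfap3l, Penk, Gpr22 and Rgs2. The median was 0.31 without fear 2 and 0.06 without fear 3, and the number higher was 4 without fear 1 and 5 without home cage 2. Dusp4, a phosphatase that switches off MAP kinases, measured 10.5, 9.63 and 11.4 CPM in fear and 5.49, 7.19 and 5.43 CPM in home cage (0.8 ± 0.21, adjusted p = 0.527). Homer1, a postsynaptic scaffold, was at 237, 167 and 192 CPM in fear and at 108, 124 and 167 CPM in home cage, so that the groups met at 167 CPM (0.58 ± 0.2). Its context libraries were at 245, 222 and 168 CPM. Bdnf, the neurotrophin, gave 0.26 ± 0.21, and Nptx2 and Ptgs2 gave 0.06 ± 0.29 and -0.03 ± 0.38. Plk2, a kinase of synaptic scaling, lay higher in all 3 fear libraries at 253 to 285 CPM, against 191 to 242 CPM in home cage. The lower member was Mfap3l (-0.43 ± 0.16). Of 23 neuropeptide precursor genes 2 were higher and 2 lower, with a median of -0.18. With GC and length offsets the median was 0.02, with 13 of 23 log2 values positive in place of 4 and 2 higher and 0 lower. Without home cage 3 it was -0.33, with 1 higher and 6 lower, and without fear 3 it was -0.28, with 1 higher and 4 lower. Among them prodynorphin (Pdyn), an opioid peptide precursor, measured 13.6, 8.41 and 11.4 CPM in fear and 4.22, 7.19 and 7.55 CPM in home cage (0.82 ± 0.25).

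Reln had the smallest p of all genes tested. It encodes reelin, a large secreted matrix protein that acts through lipoprotein receptors on neuronal migration and synapses, and it lies on chromosome 5 at 21884454 to 22344702 on the minus strand (GRCm38). It measured 393, 416 and 360 CPM in fear, 300, 218 and 266 CPM in context and 192, 160.0 and 130 CPM in home cage. No library of one group overlapped another group, with fear highest and home cage lowest. The log2 value was 1.28 ± 0.17 for fear over home cage (edgeR adjusted p = 0.0879), 0.7 ± 0.16 for context over home cage (unadjusted p = 0.00106) and 0.58 ± 0.16 for fear over context (unadjusted p = 0.00424). DESeq2 called it, and so did edgeR without home cage 3 (1.15, adjusted p = 0.0387), while with GC and length offsets it was 1.04 with an adjusted p of 0.189. An exact two-sided permutation test of the 3 fear against the 3 home cage libraries gave 0.1, the smallest p that this design allows. Every gene without overlap between these groups gives this p, so the test adds nothing to the separation itself. Reln is also on the list of LEC-enriched genes, where the other 5 members had log2 values between -0.87 and 0.4 and none passed at an unadjusted p under 0.05.

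In the extracellular matrix list 3 of 20 members were higher and 0 lower at an unadjusted p under 0.05, Reln among them, with a median of 0.21 that became 0.04 with GC and length offsets. Leaving out fear 1 gave a median of 0.11, fear 3 one of -0.01, home cage 1 one of 0.1 and home cage 3 one of 0.14. Hapln2, a link protein of the node of Ranvier, was at 3.12, 3.37 and 1.63 CPM in fear and at 1.3, 0.182 and 0.259 CPM in home cage (2.16 ± 0.61), a low level at which home cage 1 was near fear 3. Fibronectin (Fn1) and Cemip are matrix-related but were not in that list; Fn1 was among the CA1 and subiculum markers. Fn1 was at 81.8, 62.9 and 92.1 CPM in fear, 48.9, 50 and 50 CPM in context and 58.5, 42.9 and 37.2 CPM in home cage (0.77 ± 0.18). Cemip, which takes part in hyaluronan breakdown, was at 40.7 to 45.5 CPM in fear and 25.1 to 30 CPM in home cage (0.63 ± 0.13).

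Genes that respond to glucocorticoids had 6 members higher and 1 lower of 25 at an unadjusted p under 0.05, with a median of 0.18. Without fear 2 the count was 4 higher and 2 lower, without home cage 1 it was 9 higher and 0 lower, and without home cage 3 it was 5 higher and 2 lower with a median of 0.1. Hif3a, a hypoxia-inducible factor subunit that glucocorticoids induce, measured 23.2, 21.7 and 12.8 CPM in fear, 16.7, 11.6 and 11.0 CPM in context and 8.66, 7.65 and 9.57 CPM in home cage. All 3 fear libraries lay above home cage (1.15 ± 0.25, adjusted p = 0.491), with fear 3 the nearest. Sgk1, a kinase regulating ion channels, was at 46.9, 50.9 and 41.5 CPM in fear, 40, 32.5 and 31.3 CPM in context and 32.3, 32.1 and 26.0 CPM in home cage (0.62 ± 0.15). Plin4, a lipid droplet protein, was at 5.14, 5.48 and 2.57 CPM in fear and at 1.87, 0.82 and 1.85 CPM in home cage (1.53 ± 0.37). Cdkn1a, Nfkbia and Tsc22d3 were the other members higher in every fear library. Fkbp5, a feedback inhibitor of the receptor, gave 0.1 ± 0.18 and overlapped fully. The lower member was the metallothionein Mt1, at 15.7, 22.1 and 21.3 CPM in fear and at 53.5, 36.9 and 14.5 CPM in home cage. Crhr1, the receptor of corticotropin-releasing hormone, was at 19.0, 19.4 and 15.2 CPM in fear and at 8.66, 12.2 and 11.1 CPM in home cage (0.74 ± 0.18).

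The clock gene Per2, which activity and glucocorticoids both induce, was at 46.3, 45.1 and 49.0 CPM in fear, 43.5, 53.9 and 42.3 CPM in context and 31.2, 35.2 and 30 CPM in home cage (0.54 ± 0.14, adjusted p = 0.527). It was the only one of 19 clock genes at an unadjusted p under 0.05, a number that was 2 without fear 3 or home cage 2, 5 without home cage 1, 4 without home cage 3 and 3 with GC and length offsets. Among 18 heat shock genes, 1 was higher and 1 lower. Hspe1, the mitochondrial co-chaperonin, gave -0.59 ± 0.15, and Dnajb5 gave 0.54 ± 0.17. In edgeR none of 23 endoplasmic reticulum stress genes had an unadjusted p under 0.05, while 3 were higher without home cage 3, 2 without fear 2 and 2 with GC and length offsets.

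**Figure D3:**
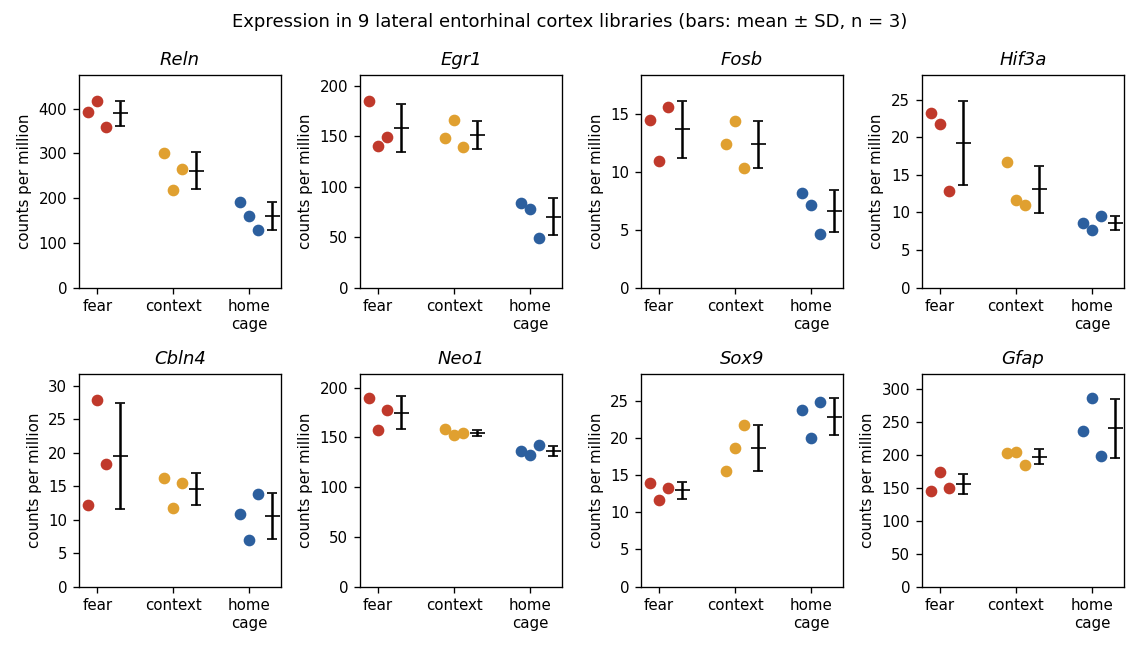
Expression in CPM of 8 genes in the 9 LEC libraries, fear, context and home cage; points are libraries and bars the mean ± SD (n = 3). Reln, Egr1, Fosb, Hif3a and Neo1 have no overlap between fear (higher) and home cage, Sox9 and Gfap have none with fear lower, and for Cbln4 fear 1 at 12.2 CPM lies below home cage 3 at 13.8 CPM. Apart from Neo1 and Cbln4, the genes shown were chosen among genes without overlap.

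The series title names Cbln4, a secreted organiser that joins presynaptic neurexins to postsynaptic partners, and Neo1, the receptor neogenin. Cbln4 (chromosome 2, 172036233 to 172043466) measured 12.2, 27.9 and 18.3 CPM in fear, 16.3, 11.8 and 15.5 CPM in context and 10.9, 6.97 and 13.8 CPM in home cage. The highest value was that of fear 2, and the groups overlapped. Cbln4 is a marker of MEC, and the 9 genes of that list had log2 values of 0 or above, with a median of 0.48, and 3 higher at an unadjusted p under 0.05. Leaving out fear 1 gave a median of 0.2, home cage 1 one of 0.14 and home cage 3 one of 0.27, with 7 of 9 positive each time, and 1 gene was higher without fear 2. The mean log2 CPM of the list was 3.26 to 3.53 in fear and 2.64 to 3.19 in home cage, and its summed level was 158 to 238 CPM in fear and 131 to 198 CPM in home cage, with no member at 0. Mybpc1 of that list was at 6.17, 8.85 and 10.7 CPM in fear and at 2.18, 2.6 and 5.43 CPM in home cage (1.34 ± 0.35). In the fit of all 36 libraries Mybpc1 (2.18 ± 0.36, edgeR adjusted p = 0.00131) and Scn4b (2.68 ± 0.27, adjusted p = 1.37e-06) passed after fear in MEC itself. The other members did not, Cbln4 among them (0.19 ± 0.29, adjusted p = 0.79). Whether the list's values in LEC reflect MEC tissue or a response of its members to fear was not tested. With the mean of the list as a covariate Cbln4, itself a member, gave 1.8 with an adjusted p of 0.808. That mean separated fear from home cage, so this fit cannot tell MEC tissue from the contrast. Without fear 2 Cbln4 gave 0.52 (adjusted p = 0.803). What part of neighbouring MEC tissue there is in the Cbln4 value was not tested.

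Neo1 (chromosome 9, 58874687 to 59036441) was at 190.0, 157 and 178 CPM in fear, 158, 152 and 154 CPM in context and 136, 132 and 142 CPM in home cage. Fear and home cage did not overlap, and the difference was small (0.35 ± 0.12, adjusted p = 0.573), with 0.18 under the GC and length offsets. Unc5c, a netrin receptor, was at 75.2, 74.3 and 94.6 CPM in fear, 53.4, 60.9 and 57.9 CPM in context and 61.5, 54.6 and 61.4 CPM in home cage (0.46 ± 0.14). Neo1, Unc5c and Cbln4 were the only members of the 23 tested in the cerebellin and neogenin list with an unadjusted p under 0.05, and the list's median was 0.04. The list was 3 higher and 3 lower without fear 3 and 3 higher and 4 lower without home cage 3. The neurexins Nrxn2 and Nrxn3 gave -0.13 ± 0.31 and 0.33 ± 0.17, and the ligand Rgma gave -0.47 ± 0.26. Of 40 other synaptic adhesion genes, 1 was higher (Tenm4, 0.33 ± 0.12), with a median of 0.04. The count was 6 higher and 1 lower without home cage 1, 0 higher and 2 lower without home cage 2, and 5 higher and 3 lower without home cage 3, and no gene was higher without fear 1.

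Among receptors and channels, potassium channel genes had 6 of 30 members higher at an unadjusted p under 0.05 and 0 lower, with a median of 0.13. With GC and length offsets 4 were higher and 1 lower, with a median of 0.04. The number higher was 2 without fear 1, 10 without fear 2, 1 without fear 3, 4 without context 1 and 3 without home cage 1 or 2, and without home cage 3 it was 6, with 2 lower. Kcnq3, a subunit of the M-current that brakes repetitive firing, was at 61.2, 38.3 and 63.9 CPM in fear and at 34.3, 34.8 and 37.4 CPM in home cage (0.62 ± 0.18, adjusted p = 0.527). Kcnf1, a silent subunit of Kv2 channels, was at 259, 200 and 274 CPM in fear and at 198, 168 and 175 CPM in home cage (0.44 ± 0.14). Glutamate receptor genes had 3 of 22 higher, Grm4, Grin2a and Grm8, a number that was 1 when home cage 2 was left out and was 5 when home cage 1 or 3 was. Grin2a, an NMDA receptor subunit, was at 33.3, 21.1 and 42.3 CPM in fear and at 20.3, 16.2 and 23.4 CPM in home cage (0.69 ± 0.24), with an overlap at fear 2. Of 16 GABA receptor genes 1 was lower (Gabrg1, -0.4 ± 0.17), a number that ran from 0 to 2 when single libraries were left out, and was 0 without fear 1, fear 2 or home cage 3. The muscarinic receptor Chrm3 was at 29.6, 24.6 and 29.4 CPM in fear, 19.1, 20.5 and 20.9 CPM in context and 18.4, 18.9 and 18.9 CPM in home cage (0.57 ± 0.14). Cacng5, an auxiliary subunit of AMPA receptors, was at 25.6 to 27.5 CPM in fear and 12.5 to 19.4 CPM in home cage (0.82 ± 0.17). Long transcripts tended to higher values: over 5 bins of transcript length the median log2 value was 0.11 in the longest and -0.15 in the shortest, and with GC and length offsets Kcnq3 gave 0.43, Kcnf1 0.32, Grin2a 0.48, Chrm3 0.49 and Cacng5 0.76.

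On the lower side, 3 of the 12 leading genes were astrocyte markers. Sox9, a transcription factor of astrocytes, measured 13.9, 11.7 and 13.3 CPM in fear, 15.6, 18.6 and 21.7 CPM in context and 23.7, 20 and 24.8 CPM in home cage (-0.81 ± 0.17, adjusted p = 0.491). Gfap, the intermediate filament of reactive astrocytes, was at 144, 173 and 150.0 CPM in fear, 202, 204 and 184 CPM in context and 235, 286 and 198 CPM in home cage (-0.62 ± 0.15, adjusted p = 0.527). S100b, a calcium-binding protein, was at 92.7, 121 and 96.9 CPM in fear and at 140.0, 180.0 and 164 CPM in home cage (-0.64 ± 0.15). In all, 4 of 10 astrocyte markers were lower at an unadjusted p under 0.05 and 0 were higher, and all 10 had negative log2 values (median -0.17). Glutamate transporter genes Slc1a3 and Slc1a2 gave -0.16 ± 0.11 and -0.14 ± 0.14, and Aldh1l1 gave -0.02 ± 0.17. The summed level of the markers was 5970 to 6090 CPM in fear and 6590 to 7350 CPM in home cage. In bulk tissue, fewer astrocytes and less RNA of these genes per astrocyte cannot be told apart. Id2, an inhibitor of basic helix-loop-helix factors, was at 77.1, 58.4 and 60.9 CPM in fear, 79.9, 73.3 and 76.1 CPM in context and 103, 98.6 and 106 CPM in home cage (-0.65 ± 0.13). Nrarp, a feedback inhibitor of Notch, gave -0.72 ± 0.16, but 79.4% of its exonic bases overlap a gene on the other strand, and the strand setting of the counting is not given in the sources used here.

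Messengers of ribosomal proteins and of the respiratory chain made up another group with lower values. Of 83 cytosolic ribosomal protein genes 58 were lower and 0 higher at an unadjusted p under 0.05, with a median of -0.48, although only 23 had no overlap between the groups. The number lower was 15 without fear 1, 37 without fear 3 and 23 without home cage 2. It was 37 with the replicate block, 29 with the block and GC and length offsets, and 6 with the MEC list as a covariate. Over all genes 633 were lower in the main fit, 256 without fear 1 and 638 without fear 3. With the block 376 were lower, and with the block and the offsets 635. The MEC list itself separated fear from home cage, so that covariate takes up part of the contrast. Rpl23 was at 124, 158 and 125 CPM in fear and at 195, 243 and 209 CPM in home cage (-0.67 ± 0.17). Their mean log2 CPM was 6.05, 6.5 and 6.22 in fear and 6.83, 6.87 and 6.48 in home cage, so that fear 2 lay above home cage 3. Of 35 nuclear genes of complex I 15 were lower and 0 higher (median -0.41), a number that was 4 without fear 1, 8 without home cage 1 and 10 without fear 3 or home cage 2. It was 8 with GC and length offsets, 5 with the block as well, and 1 with the MEC list as a covariate. Among the members, Ndufc2 was at 22.6, 26.1 and 26.1 CPM in fear and 43.7, 33.6 and 34.9 CPM in home cage (-0.59 ± 0.16). Cytochrome oxidase genes Cox8a and Cox6a1 gave -0.63 ± 0.14 and -0.69 ± 0.17. These genes are short, and with GC and length offsets the medians became -0.29 for ribosomal protein genes and -0.21 for complex I. Ribosomal protein pseudogenes had a median of -1.29 over 42 members, beside -0.53 over all 384 processed pseudogenes tested. Whether reads of the parent genes were counted for them was not tested. The 13 mitochondrially encoded genes had a median of -0.46, which was -0.1 with the offsets, -0.69 when fear 2 or home cage 1 was left out, -0.22 when home cage 3 was, and 0.17 when both home cage 2 and 3 were. The ferritin heavy chain gene Fth1 was at 808 to 883 CPM in fear and 1100 to 1410 CPM in home cage (-0.56 ± 0.14).

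Microglial markers were lower in 8 of 10 cases by log2 value, with 3 at an unadjusted p under 0.05 and a median of -0.42. That number was 1 without fear 1 or home cage 2 and 5 without home cage 3. Tyrobp, an adaptor of microglial receptors, was at 9.05, 12.8 and 9.33 CPM in fear and at 16.9, 19.1 and 14.6 CPM in home cage (-0.7 ± 0.2), whereas Csf1r, the receptor on which microglia depend, gave 0.02 ± 0.13. The summed level was 359 to 421 CPM in fear and 405 to 505 CPM in home cage. Endothelial markers pointed the other way, with 9 of 10 log2 values positive, 3 at an unadjusted p under 0.05 and a median of 0.41. That number was 0 with the 6 libraries alone and without fear 1, context 2, context 3 or home cage 1, 1 without fear 2 or home cage 3, and 5 without home cage 2. Leaving out home cage 1 gave a median of 0.24 and home cage 2 one of 0.62. Their mean log2 CPM was 3.32 to 3.43 in fear and 2.63 to 3.32 in home cage, and Cldn5 gave -0.04 ± 0.32. With the MEC list as a covariate the endothelial median was -0.14. Markers of choroid plexus and ependyma had a median of 0.27, with 4 of 9 log2 values negative and a summed level of 8.88 to 22 CPM in fear and 6.81 to 39.5 CPM in home cage. Their median was 0.03 without fear 2 or home cage 3, 0.1 without fear 3 and 0.16 without home cage 1. Markers of meninges and mural cells had a median of 0.25, with 3 of 14 negative and a summed level of 996 to 1440 CPM in fear and 926 to 1290 CPM in home cage. Leaving out home cage 1 gave a median of 0.11, home cage 2 one of 0.41 and home cage 3 one of 0.15. Of these, Slc6a13 was at 16.9, 23.5 and 13.7 CPM in fear and 7.57, 10.4 and 12 CPM in home cage. The interneuron peptide Sst was at 48.9, 47.2 and 59.7 CPM in fear and at 138, 72.8 and 48.0 CPM in home cage, where home cage 1 stood out (-0.73 ± 0.3). In fits with the MEC list or the choroid plexus and meninges markers as a covariate no gene was called between fear and home cage. The main fit called none either, so these counts cannot show a part of cell composition. The mean of the MEC list was 3.53, 3.26 and 3.42 in fear and 2.64, 3.19 and 2.86 in home cage. As a covariate it therefore takes up part of the contrast itself. The part of cell composition in the other gene groups was not tested.

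**Figure D4:**
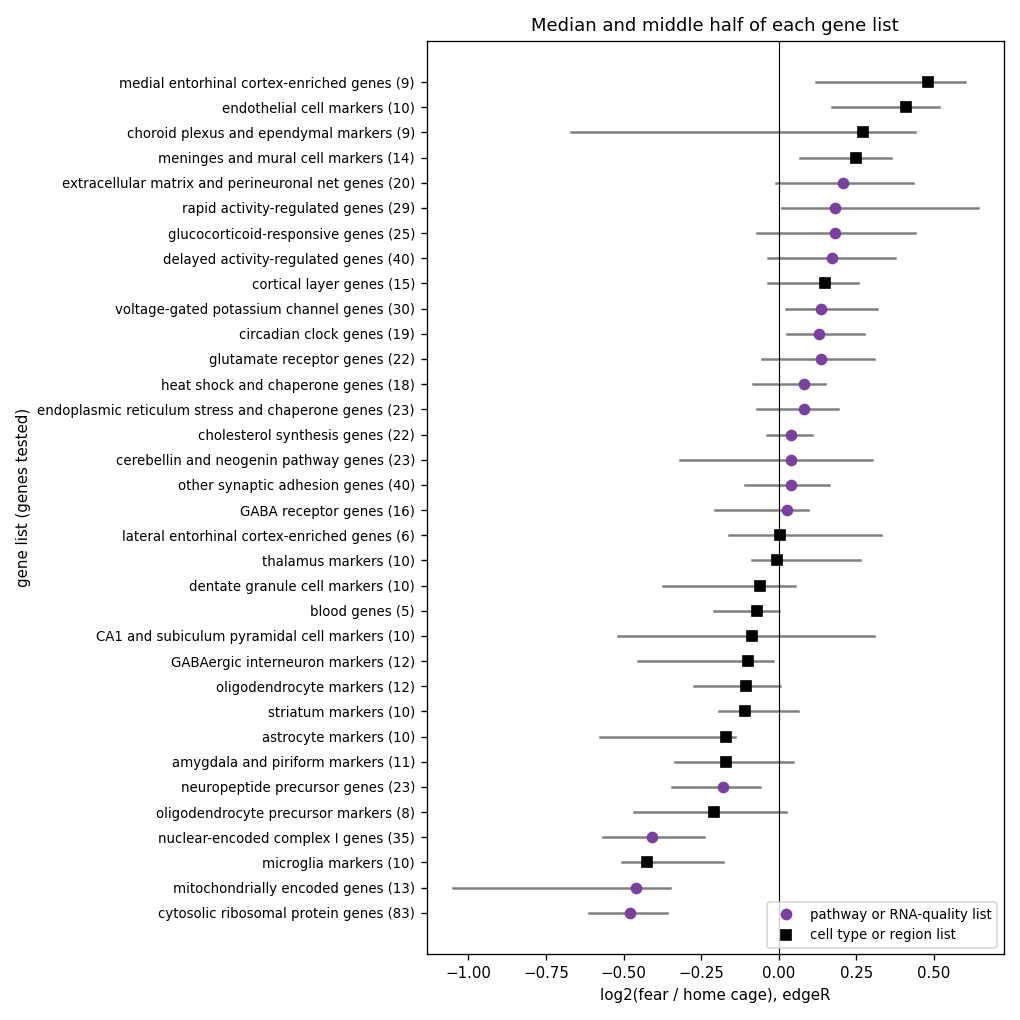
Median log2 value (fear over home cage, edgeR) of each of 34 gene lists, with the interquartile range of its members as a line; the number of genes tested is in brackets. Lists of MEC-enriched genes (0.48) and endothelial markers (0.41) are at the top, and mitochondrially encoded (-0.46) and ribosomal protein genes (-0.48) at the bottom.

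Whether the response differed from that of other regions was tested as an interaction in the fit of all 36 libraries, over 17875 genes. Between LEC and MEC, 3 genes passed (0.0168%), all with a smaller log2 response in LEC. Scn4b, the beta 4 subunit of sodium channels that supports fast firing, measured 7.01, 5.17 and 6.82 CPM in LEC after fear and 3.21, 7.39 and 4.78 CPM in LEC of home cage mice. In MEC it measured 31.6, 47.2 and 54.6 CPM after fear and 6.19, 7.54 and 7.12 CPM in the home cage. The LEC response was 0.32 ± 0.28 and the MEC response 2.68 ± 0.27 on the log2 scale, a difference of -2.36 ± 0.38 (adjusted p = 0.00571). Nefh, the heavy neurofilament subunit, was at 24.7, 24.6 and 29.1 CPM in LEC after fear and at 34.7, 26.2 and 23.5 CPM in the home cage, so that the groups overlapped. In MEC it was at 60.8, 77.3 and 90.0 CPM after fear and at 29.5, 29.3 and 36.6 CPM in the home cage (difference -1.37 ± 0.22, adjusted p = 0.00571). Vamp1, a synaptic vesicle SNARE protein, was at 56.4, 54.8 and 61.6 CPM in LEC after fear and at 67.0, 60.0 and 55.5 CPM in the home cage. In MEC it was at 123, 152 and 163 CPM after fear and at 68.7, 69.1 and 68.9 CPM in the home cage (difference -1.16 ± 0.17, adjusted p = 0.00128). In LEC the fear and home cage libraries of all 3 genes overlapped, and in MEC every fear library lay above every home cage library. The calls of Scn4b and Nefh depended on single replicates (Scn4b to an adjusted p of 0.134 and Nefh to 0.186 when 1 was left out), while Vamp1 passed each time. The count of genes called for this difference was 6 without fear replicate 1, 1 without fear replicate 3 or home cage replicate 2, and 267 without home cage replicate 3, and DESeq2 called 17. Kcng4, a modifier of Kv2 channels, had the next values in the same direction (-2.02 ± 0.42, adjusted p = 0.146).

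Against CA3, 1 gene passed (0.00559%). Setd4, a methyltransferase, measured 8.8, 11.3 and 7.22 CPM in LEC after fear and 4.15, 6.8 and 5.07 CPM in LEC of home cage mice, against 7.89, 8.3 and 4.88 CPM in CA3 after fear and 13.1, 13.7 and 13.9 CPM in CA3 of home cage mice. The difference was 1.72 ± 0.27 (adjusted p = 0.00872), and the call was lost, with an adjusted p of up to 0.0839, without fear replicate 1 or 2 or home cage replicate 1 or 3. The count was 11 without fear replicate 3 and 2 without home cage replicate 1, and DESeq2 called 25. Against CA1 no gene passed in edgeR (0 of 17875, 0%; 1320 at an unadjusted p under 0.05; 0 in DESeq2). For Reln, the response in LEC (1.31 ± 0.25 in this fit) and that in MEC (0.49 ± 0.25) had a difference that did not pass (0.82 ± 0.35, adjusted p = 0.7). Reln passed after fear in CA1 (0.96 ± 0.25, edgeR adjusted p = 0.0287) and in CA3 (0.82 ± 0.25, adjusted p = 0.0454). The differences of LEC from CA1 and CA3 did not pass (adjusted p = 0.814 and 0.638). Neo1 gave 0.38 ± 0.1 in LEC and 0.21 ± 0.1 in MEC and did not pass. It passed in CA1 (0.37 ± 0.1, adjusted p = 0.0361) and CA3 (0.64 ± 0.1, adjusted p = 0.00751). The Neo1 response of LEC minus that of CA1 was 0.01 ± 0.15, and minus that of CA3 it was -0.25 ± 0.15. Neither difference passed (edgeR adjusted p = 0.995 and 0.556). Egr1 gave 1.19 ± 0.27 in LEC and 1.41 ± 0.27 in MEC (difference -0.22 ± 0.38, adjusted p = 0.921). In the same fit 164 genes rose and 75 fell after fear in MEC, 499 and 253 in CA1 and 873 and 362 in CA3, and none did in LEC, where 1780 had an unadjusted p under 0.05.

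**Figure D5:**
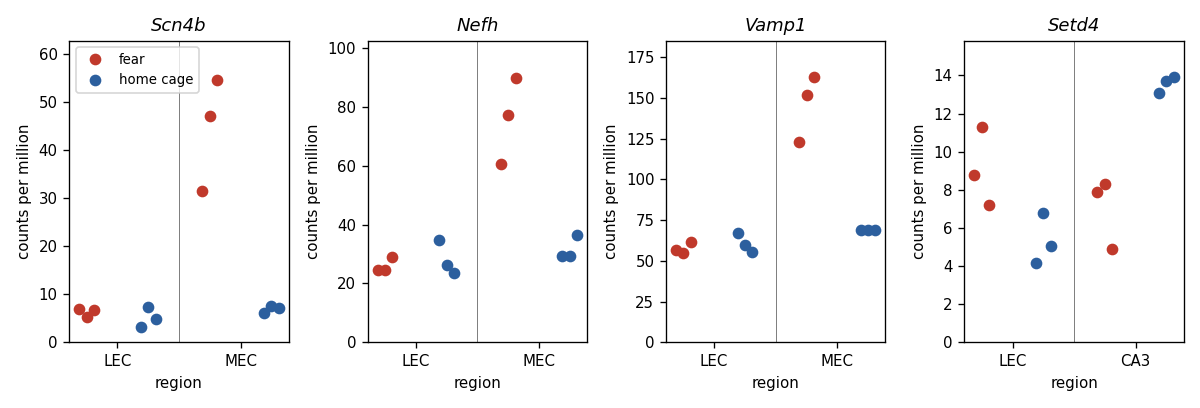
CPM per library of the 4 genes whose fear response in LEC differed from another region, Scn4b, Nefh and Vamp1 against MEC and Setd4 against CA3; fear is left of home cage in each region. In LEC Scn4b stays at 3.21 to 7.39 CPM in both groups, while in MEC fear it reaches 31.6 to 54.6 CPM.

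Fear was also set against context exposure, in which 0 genes passed in edgeR (0%, 207 at an unadjusted p under 0.05; 0 in DESeq2). Context against home cage likewise gave 0 (0%, 403 at an unadjusted p under 0.05), and 3 in DESeq2. All 3 context libraries lay above home cage for 585 genes (3.57%) and below it for 488 (2.98%). Since fear and context share the home cage libraries, their values are given side by side. Egr1, Fosb, Per2 and Pdyn had context values close to those of fear, at 1.1, 0.89, 0.54 and 0.8 on the log2 scale. Unc5c, Fn1, Chrm3 and Sgk1 had lower context values, at -0.04, 0.1, 0.11 and 0.2. Their fear libraries lay above context by 0.5 ± 0.13, 0.67 ± 0.18, 0.47 ± 0.14 and 0.43 ± 0.15, none past adjustment. Reln and Hif3a lay between, at 0.7 and 0.6 in context, with fear over context at 0.58 ± 0.16 and 0.55 ± 0.24. All of these are examples named through their fear against home cage values, and a smaller context value can come from that choice. For the glucocorticoid-responsive list the median was 0.18 in fear and 0.05 in context, and for the rapid list it was 0.18 in fear and 0.19 in context.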

How the data were processed

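RNA was extracted with TRIzol and made into TruSeq Stranded mRNA libraries, per the labels' protocols. The authors deposited raw counts of reads for each gene, in whole numbers; per the submitters' processing notes the authors used Trimmomatic 0.33, STAR 2.7.10b and HTSeq 2.0.1 with mm10. The sources used here give no annotation release, settings or strand option. All 36 single-sample files held the counts of the series table. Symbols came from GENCODE M21 (95.2% of 37315 genes; genes without one held 0.208% of counts).

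The 9 LEC libraries were passed through filterByExpr and TMM scaling, then through glmQLFit of edgeR with its robust option, which left 6 degrees of freedom, with Benjamini-Hochberg adjustment over all genes and calls at 0.05. The p-values in the text are from this fit unless named otherwise. Region differences came from all 36 libraries. Replicates of a group differed by more than sampling noise. The comparison and the gene lists were chosen with earlier results of these data known.

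Named were the 12 protein-coding genes of smallest p in each direction with no overlap between groups and a mean of at least 2 log2 CPM, the 4 members of smallest p per pathway list, Cbln4, Neo1 and the 6 leading genes per region difference; the text prints a part of them, and some named genes are not reported here. Other list members were named after their values were seen, as examples.

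Alternatives were another scaling (RLE), no low-count filter, DESeq2, the 6 libraries alone, all 36 libraries, a replicate block, GC and length offsets (natural splines with 5 degrees of freedom), a choroid plexus and meninges covariate and leaving out each library. Added after seeing the data were leaving out home cage 2 and 3 together and a covariate of MEC-enriched genes. Same-numbered fear and home cage libraries did not deviate together (correlations of -0.3, -0.034 and -0.44), so the numbers were not taken to pair them. Versions were DESeq2 1.42.0, edgeR 4.0.16 and limma 3.58.1 under R 4.3.3, and matplotlib 3.10.9, scipy 1.17.1 and pandas 2.3.3 under Python 3.11.15.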

Additional observations from a re-analysis of the deposited data

Results flagged for a closer look

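In 4 cases the log2 response to fear differed between LEC and another region by a tested interaction (edgeR, 36 libraries). Against MEC these were Vamp1 (-1.16, LEC -0.08 and MEC 1.08), Nefh (-1.37, LEC -0.11 and MEC 1.26) and Scn4b (-2.36, LEC 0.32 and MEC 2.68). Against CA3 it was Setd4 (1.72, LEC 0.77 and CA3 -0.95). The level of Scn4b in home cage mice was 5.13 CPM in LEC and 6.95 CPM in MEC. DESeq2 called 17 genes for the difference from MEC and 25 for the difference from CA3.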

How the results depend on the processing

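The count of genes called between fear and home cage was 0 under RLE scaling, the 6 libraries alone, all 36 libraries, the replicate block, both covariates and the loss of home cage 2 and 3. It was 4 with no filter on low counts, 39 with DESeq2, 1 with GC and length offsets, 1 with these offsets and the replicate block, and 0 to 56 when single libraries were left out, with 56 without home cage 3 (12 higher and 44 lower in fear). For context against home cage it was 1 with no filter, 3 with DESeq2, 1 with the offsets and 1 with the offsets and the block. For the response of LEC minus MEC it was 17 with DESeq2 and 1 to 267 when 1 fear or home cage replicate was left out in all regions, with 267 without home cage 3; for LEC minus CA3 it was 25 with DESeq2 and 0 to 11. The cause was not tested. Among single genes, 5 values reversed: Dhcr7 (0 without fear 3, and 0.2 at most without another single library), Tenm3 (-0.06) and Gabrg3 (0) without home cage 2 and 3, and Nrxn3 (-0.06) and Mvk (0.19) with the MEC covariate. Another 1534 kept their direction and side of the threshold, 31 passed it and 10 no longer did. Since no gene passed between fear and home cage in the main fit, keeping its side there means only that a gene again did not pass. Same-numbered fear and home cage libraries did not deviate together, and the replicate block, which gave Reln 1.3 (adjusted p = 0.254), changed no count of calls. Depth was 21871412 counts or more in every library, and genes under about 1 CPM are the least precise.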

Other observations

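Dync1h1, the heavy chain of cytoplasmic dynein, was at 848, 575 and 871 CPM in fear and at 494, 474 and 356 CPM in home cage, which made it one of the most abundant of the leading genes (0.79 ± 0.19, adjusted p = 0.527). Bcor, a corepressor of transcription on the X chromosome, was at 39.5, 28.8 and 36.8 CPM in fear and at 22.0, 17.8 and 18.4 CPM in home cage (0.85 ± 0.17). In the fit of all 36 libraries Bcor passed in the other 3 regions, with log2 values of 0.76 in MEC, 0.65 in CA1 and 0.73 in CA3, beside 0.88 in LEC (adjusted p = 0.0631). Apoe, the lipid carrier of astrocytes, was at 285, 383 and 402 CPM in fear and at 758, 670.0 and 312 CPM in home cage, so that home cage 3 lay with the fear libraries. Rpl36 was at 3.25, 4.08 and 5.14 CPM in fear and at 16.9, 13.1 and 1.9 CPM in home cage, where home cage 3 lay below every fear library and home cage 1 and 2 above them.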
